A study of Saccharomyces cerevisiae with 4 samples.

Results

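The genes described here encode the proteins of the cytosolic ribosome of budding yeast, and they were chosen by name: every gene whose symbol starts with RPL or RPS and a number, with or without the letter A or B, and the RPP symbols of the ribosomal stalk. The pattern took 128 of the 5449 Saccharomyces cerevisiae genes measured. One of them, RPP1, encodes a subunit of RNase P and RNase MRP and is no ribosomal protein, which left 127 ribosomal protein genes. They comprised 75 genes of the large subunit, stalk included, and 52 of the small subunit. Ribosomal protein genes with no probe set tied to them were not analysed here.

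The study compared dis3E729K, yeast with a missense allele of DIS3, with wild-type yeast, with 2 arrays of each. The protein it encodes is the ribonuclease of the exosome, which trims and degrades RNA from the 3' end. Per the labels, both genotypes were of the common laboratory strain BY4741, carried a URA3 marker next to DIS3, and grew at 30 °C in drop-out medium to mid-log phase. Values are log2 intensities of 1-colour Affymetrix arrays, a scale on which a difference of 1 is a doubling, and below "signal" means that log2 intensity.

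Most yeast ribosomal proteins are encoded by a pair of paralogues, called A and B, that remain from an ancient genome duplication and give near identical proteins. Their genes are transcribed together when growth is fast and are repressed together when nutrients run short or cells are stressed, under control of the TOR pathway and of Rap1, Fhl1, Ifh1 and Sfp1 at their promoters. Many of them carry introns, which are rare in yeast, and some ribosomal proteins limit their own supply by acting on the splicing or the decay of their own transcripts. The exosome serves the same pathway from another side, since it processes ribosomal RNA precursors and degrades unspliced pre-mRNA in the nucleus.

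The 4 arrays had near identical distributions, with medians of 10.27 and 10.27 in dis3E729K and 10.29 and 10.28 in wild type over the genes tested, so a rise or fall common to all mRNA could not be seen. The cultures differed in a way the genotypes do not explain. Signal of STE2, the receptor for alpha-factor that a cells make, was 12.58 in dis3E729K replicate 1 and 6.81 in replicate 2, against 12.26 in wild type replicate 1 and 7.01 in replicate 2. STE3, the receptor of alpha cells, ran the other way, with 7.01 and 11.81 in dis3E729K and 7.88 and 12.09 in wild type. The remaining 5 markers of a cells and 3 of alpha cells split the arrays in the same way, whereas the BY4741 strain is of mating type a. MET17, which BY4741 lacks, read 3.37 and 3.47 in dis3E729K, 3.22 in wild type replicate 1 and 9.55 in wild type replicate 2. Values are therefore also given within each replicate number. DIS3 itself read 11.49 and 11.12 in dis3E729K against 11.65 and 11.82 in wild type (log2 difference -0.43 ± 0.18, SE; limma adjusted p = 0.154), and its level does not check the labels of a missense allele. Control probe sets for 18S and 25S ribosomal RNA, 16 without those of fission yeast, had both dis3E729K arrays above both wild-type arrays in every case, and their median difference was 0.44.

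Nearly all ribosomal protein genes read lower in dis3E729K, most of them by little. The log2 difference, dis3E729K minus wild type, was below zero for 124 of 127 genes, where 55.3% of all genes tested lay below zero. Its median was -0.22, with the middle of the genes between -0.37 and -0.12, while all genes tested had a median of -0.07. Both dis3E729K arrays lay below both wild-type arrays for 109 of the 127, 85.8%, where this held for 41.8% of all genes tested. The opposite order held for 1 ribosomal protein gene, RPL4A, where it held for 32.3% of all genes tested.

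Few of these differences passed the test of single genes. With limma, 3 of the 127 fell at an adjusted p (Benjamini-Hochberg) under 0.05, RPL22B, RPS22B and RPS14B, against 8.15% of all genes tested. None rose, against 7.71% of all genes tested, and at an unadjusted p under 0.05 limma found 25 ribosomal protein genes lower and 0 higher, against 22.6% and 18.1% of all genes tested. The count of ribosomal protein genes called was thus no larger a share than that of all genes. A low count does not show that differences are absent, since the test had little power for small ones. In simulated data with 2 arrays per genotype, limma called 0.3% of genes with a log2 change of 0.5 and 13.3% with a change of 1. Fewer genes were changed there than were called here, so these shares are a rough guide. The spread of every simulated gene was drawn from 1 distribution, whatever its signal. The shares therefore do not describe ribosomal protein genes in particular. The calls were not stable when an array was left out. Such fits have less power, so a lost call does not show that it rested on that array. The ribosomal protein genes called changed whichever array was left out, and such fits leave 1 array in a genotype. Over all genes tested, calls in each direction were also fewer in every such fit. Without single arrays the log2 change of RPL22B ran from -1.18 to -1.87. That of RPS22B ran from -0.72 to -1.07 and that of RPS14B from -0.59 to -0.68.

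The mutant cultures differed from each other more than the wild-type cultures did. Over the 127 genes the median signal was 13.62 and 13.44 in dis3E729K replicates 1 and 2, against 13.80 and 13.82 in wild type. Signal was lower in dis3E729K replicate 2 than in replicate 1 for 125 of 127 genes, with a median difference of -0.15, where 54.8% of all genes tested had that order. Between the wild-type cultures, replicate 2 was below replicate 1 for 41 of 127 genes, with a median difference of 0.02. The median of dis3E729K minus wild type was -0.14 for replicate 1 and -0.29 for replicate 2, where all genes tested had -0.04 and -0.11. The lower signal in dis3E729K thus appeared within both replicate numbers and was larger in the second.

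**Figure D1:**
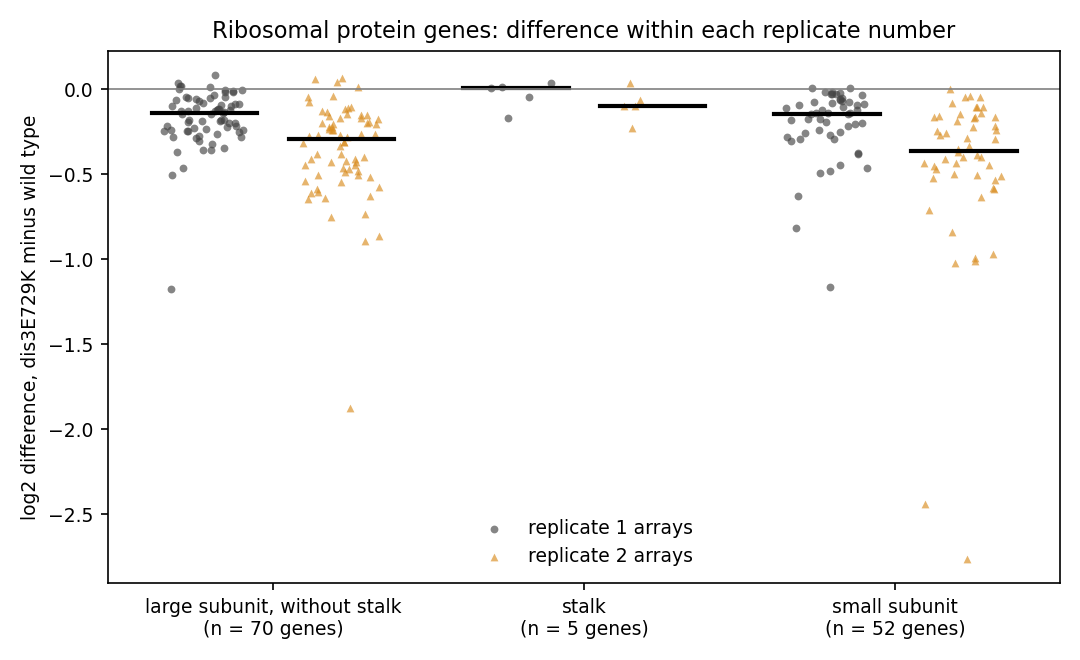
Log2 difference of each ribosomal protein gene, dis3E729K minus wild type, for replicate 1 (circles) and replicate 2 (triangles), for the large subunit without its stalk, the stalk and the small subunit; 1 point is 1 gene and black lines are medians. Medians of the large subunit without its stalk are -0.14 and -0.30, those of the small subunit are -0.14 and -0.36, and those of the 5 stalk genes are 0.00 and -0.10.

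The large subunit holds the site of peptide bond formation and the exit tunnel, and the small subunit holds the site where codons are read. The median log2 difference was -0.25 over the 52 small subunit genes and -0.20 over the 75 large subunit genes. Both dis3E729K arrays lay below both wild-type arrays for 48 of 52 small subunit genes and 61 of 75 large subunit genes, where 41.8% of all genes tested had that order. The medians of the subunits differed by -0.05, small minus large, and that difference was -0.02 without dis3E729K replicate 2 and -0.09 without dis3E729K replicate 1, so its size depended on 1 culture. The difference between subunits was not tested over genes, which are not replicates. Within the small subunit 52 of 52 genes were below zero, and within the large subunit 72 of 75. The 3 genes above zero were RPL4A, RPL32 and RPP0.

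The stalk is the flexible arm of the large subunit that recruits the translation factors. RPP0, the protein that anchors the stalk to the ribosome, read 14.14 and 14.21 in dis3E729K against 14.10 and 14.17 in wild type. The 2 genotypes overlapped, and the log2 difference was 0.04 ± 0.12 (SE; limma adjusted p = 0.831). Of the acidic proteins that bind RPP0 as dimers, RPP1A differed by -0.04, RPP2A by -0.07 and RPP2B by -0.03. RPP1B read 13.73 and 13.69 in dis3E729K against 13.89 and 13.92 in wild type, a difference of -0.20 ± 0.12 (SE; limma adjusted p = 0.258). None of the 5 stalk genes passed limma's test, where 8.15% of all genes tested fell. Nor was any at an unadjusted p under 0.05, 0 of 5, where 22.6% of all genes tested were lower at that p. Their median of -0.04 lay nearer zero than that of the other 70 large subunit genes, -0.22.

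RPL22B fell most clearly. It encodes the B form of ribosomal protein L22, and Rpl22 protein is known to bind the intron of RPL22B and to hold back its splicing. RPL22B read 11.23 and 10.55 in dis3E729K against 12.40 and 12.42 in wild type. Both mutant arrays lay below the wild-type arrays, which lay 0.02 apart. The mean was 10.89 ± 0.48 in dis3E729K and 12.41 ± 0.01 in wild type (SD, n = 2 each), a 2.88-fold lower level with a log2 change of -1.52 ± 0.26 (SE; limma adjusted p = 0.0412). Without single arrays the change ran from -1.18 to -1.87, and it passed limma's test without dis3E729K replicate 1 but not without any of the other 3 arrays. Its paralogue RPL22A read 13.62 and 13.43 in dis3E729K against 13.80 and 13.84 in wild type, and its difference of -0.30 ± 0.13 (SE) did not pass (limma adjusted p = 0.174).

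RPS22B also fell. Its intron hosts a small nucleolar RNA, and its pre-mRNA is a known substrate of Rnt1, the yeast RNase III. RPS22B read 12.60 and 12.25 in dis3E729K against 13.42 and 13.21 in wild type, with a log2 change of -0.89 ± 0.18 (SE; limma adjusted p = 0.0476). The groups did not overlap, and the difference was -0.82 for replicate 1 and -0.97 for replicate 2. RPS22A, the other copy, read 12.90 and 12.70 in dis3E729K against 13.28 and 13.28 in wild type, and at -0.48 ± 0.13 (SE) it did not pass (limma adjusted p = 0.0752). RPL7A, also the host of an intronic small nucleolar RNA, was read by a cross-hybridising probe set and differed by -0.11 ± 0.12 (SE; limma adjusted p = 0.528).

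RPS14B was the third gene to fall. Rps14 protein is known to bind RPS14B pre-mRNA and to repress that copy. RPS14B read 12.04 and 11.95 in dis3E729K against 12.67 and 12.58 in wild type, and the log2 change was -0.63 ± 0.12 (SE; limma adjusted p = 0.0452). The change was the same in both replicate numbers, -0.63 and -0.63. RPS14A read 13.94 and 13.92 in dis3E729K against 14.02 and 14.08 in wild type, a difference of -0.12 ± 0.12 (SE; limma adjusted p = 0.470). Neither RPS22B nor RPS14B passed when any 1 of the 4 arrays was left out. With the replicate number, which the mating type markers follow, as a block, neither passed (limma adjusted p = 0.0639 for RPS22B and 0.105 for RPS14B), and RPL22B did.

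RPS28B had the lowest log2 difference of all ribosomal protein genes and did not pass the test. Rps28 protein is known to bind its own RPS28B transcript and, with Edc3, to speed its decapping. RPS28B read 12.14 and 10.96 in dis3E729K against 13.31 and 13.40 in wild type. The mutant cultures differed from each other by 1.18, and the difference of -1.80 ± 0.43 (SE) had a limma adjusted p of 0.0580. It passed without dis3E729K replicate 1, at -2.39. RPS28A read 13.30 and 13.07 in dis3E729K against 13.59 and 13.58 in wild type, a difference of -0.40 ± 0.14 (SE; limma adjusted p = 0.112).

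RPS9A differed between the wild-type arrays. Rps9 protein acts on the splicing of its own transcripts. RPS9A read 9.90 and 9.19 in dis3E729K against 9.94 and 11.96 in wild type. Wild type replicate 2, the culture that alone read MET17, lay 2.02 above wild type replicate 1, which lay close to dis3E729K replicate 1. The log2 difference of -1.40 ± 0.75 (SE) did not pass (limma adjusted p = 0.228), and it was -0.39 without wild type replicate 2 and -2.41 without wild type replicate 1. RPS9B read 13.83 and 13.76 in dis3E729K against 13.93 and 13.87 in wild type, a difference of -0.10 ± 0.12 (SE).

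RPL30, whose protein blocks the splicing of its own pre-mRNA, did not pass. It read 14.08 and 13.98 in dis3E729K against 14.13 and 14.16 in wild type, a difference of -0.11 ± 0.12 (SE; limma adjusted p = 0.514).

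**Figure D2:**
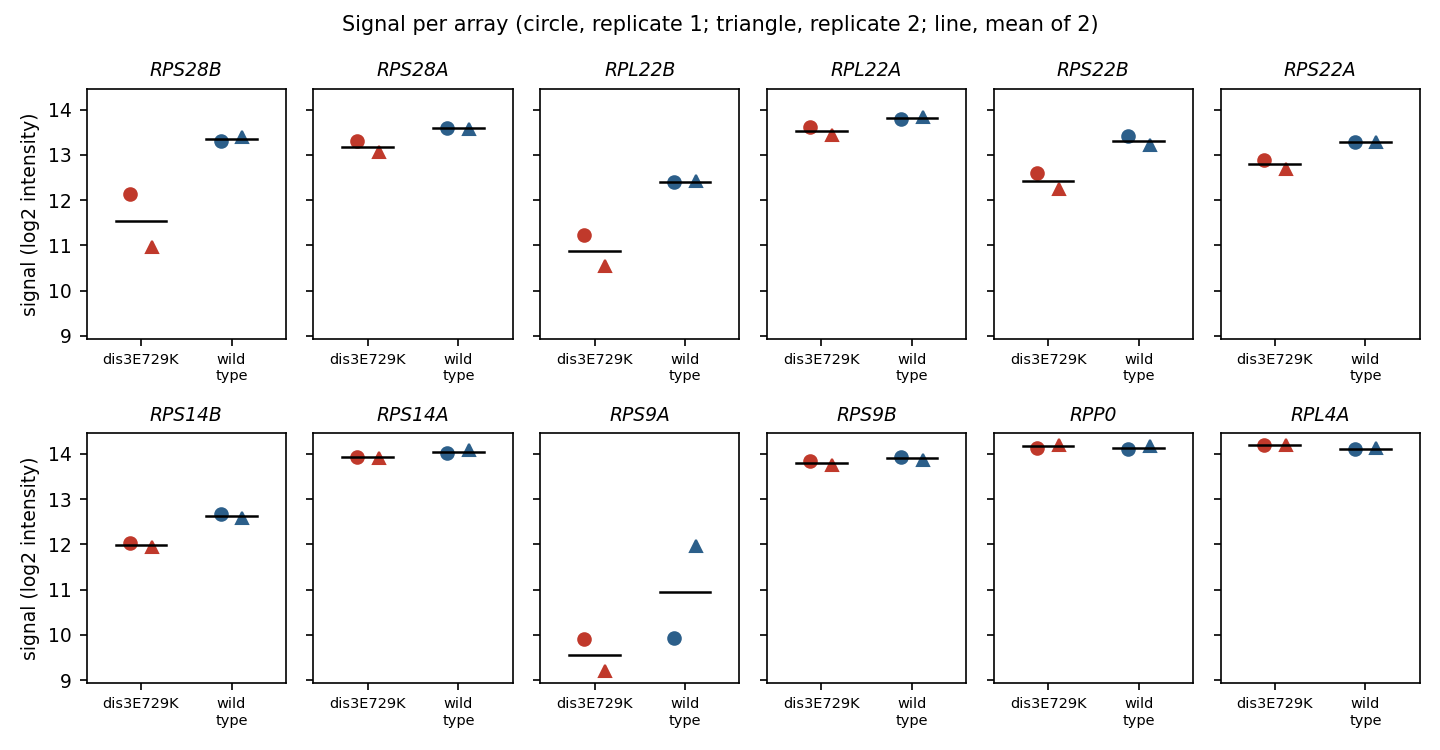
Signal (log2 intensity) on each array for the genes that fell, for RPS28B and RPS9A, for their paralogues, and for RPP0 and RPL4A; dis3E729K is left of wild type, circles are replicate 1, triangles replicate 2 and lines the mean of 2. RPL22B, RPS22B, RPS14B and RPS28B lie lower on both dis3E729K arrays, and RPS9A is high on 1 wild-type array only, at 11.96.

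The other genes among the 10 with the lowest differences were RPS10B, RPS27A, RPS25B, RPL33B and RPS17B, and none of them passed. RPS10B, whose protein sits at the head of the small subunit, read 11.90 and 11.47 in dis3E729K against 12.39 and 12.48 in wild type, a difference of -0.75 ± 0.19 (SE; limma adjusted p = 0.0646). RPS27A read 13.07 and 12.57 in dis3E729K against 13.52 and 13.56 in wild type. RPS25B read 13.07 and 12.59 in dis3E729K against 13.45 and 13.61 in wild type. In each of these genes both mutant arrays were below both wild-type arrays, and dis3E729K replicate 2 was the lowest array. RPL33B, of the large subunit, differed by -0.66 ± 0.19 (SE) and RPS17B by -0.65 ± 0.16 (SE). RPL39, which lines the exit tunnel and was singled out after its values were seen, came closest to the threshold of the genes without a paralogue. It read 12.69 and 12.65 in dis3E729K against 13.20 and 13.19 in wild type, a difference of -0.52 ± 0.12 (SE; limma adjusted p = 0.0530). The arrays of each genotype lay close together for this gene.

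At the upper end, 25 of the 127 genes differed by less than 0.1 in either direction. RPL4A, which reaches into the exit tunnel, had the highest difference and read 14.19 and 14.19 in dis3E729K against 14.11 and 14.13 in wild type, a difference of 0.07 ± 0.11 (SE; limma adjusted p = 0.653). Its probe set cross-hybridises, so the value may include RPL4B. RPL32 differed by 0.03 ± 0.13 (SE), RPL5, which carries the 5S ribosomal RNA into the large subunit, by -0.0036 ± 0.12, RPL21A by -0.0039 ± 0.12 and RPS8A by -0.0098 ± 0.12. The ubiquitin fusion genes, which supply ubiquitin along with a ribosomal protein, did not pass either. RPS31 differed by -0.04 ± 0.11 (SE), RPL40A by -0.07 ± 0.12 and RPL40B by -0.30 ± 0.13.

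The size of the difference went with the brightness of the probe set. Signals of different probe sets are not comparable as amounts of transcript, and whether the relation lies in the readout or in the transcripts was not tested. Across the 127 genes the log2 difference and the mean signal over the 4 arrays had a Spearman rho of 0.79 and a Pearson r of 0.61. These genes share the same 4 arrays and the mean includes the mutant arrays, so the values are a description. Over the 102 genes with a gene-specific probe set rho was 0.75 and r was 0.70. The median difference was -0.06 for the 26 genes with a mean signal of at least 14, -0.20 for the 59 genes from 13.5 to 14, -0.38 for the 28 genes from 13 to 13.5, and -0.55 for the 14 genes below 13. The highest signal of any probe set was 14.60 on the dis3E729K arrays and 14.49 on the wild-type arrays, so most ribosomal protein genes lay near the top of the scale. Whether signal was compressed there was not tested. Of 175 other genes with a mean signal of at least 13, 82 were below zero, with a median of 0.01. Among ribosomal protein genes of that range 110 of 113 were below zero, with a median of -0.19. The 2 sets were not matched in brightness, as 109 of the other genes and 28 ribosomal protein genes lay from 13 to 13.5. At 14 and above the other genes lay further from zero, on the upper side, with a median of 0.10 over 21 genes. None of these differences was tested. Across the 175 other genes, a set without signals below 13, rho was 0.20 and r was 0.14. Medians of other genes also rose with signal, over a smaller span. They were -0.07 below 13, -0.03 from 13 to 13.5, 0.02 from 13.5 to 14 and 0.10 at 14 and above.

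**Figure D3:**
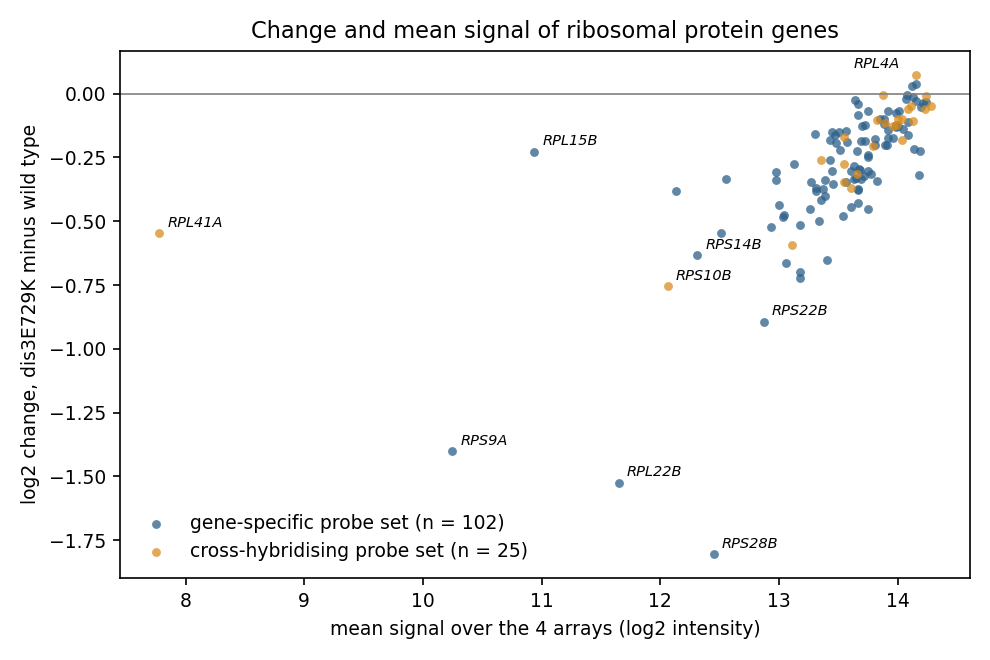
Log2 change, dis3E729K minus wild type, against the mean signal over the 4 arrays for 127 ribosomal protein genes, with the 25 cross-hybridising probe sets in orange. Genes brighter than 14 cluster near zero with a median of -0.06, and the 14 genes below 13 have a median of -0.55.

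Paralogues were compared through the difference of A minus B on each array, because the signals of 2 probe sets cannot be set against each other as levels. Of the 127 genes, 96 formed 48 pairs with both copies measured, 18 have no A or B letter, 4 are the P1 and P2 stalk genes and 9 have a paralogue with no probe set here. Both copies were below zero in 47 of the 48 pairs. The change of A minus the change of B was above zero in 27 pairs and below zero in 21, with a median of 0.06, and the median change was -0.28 over the A copies and -0.29 over the B copies. All 3 genes that fell were B copies, while 10 A copies and 11 B copies were lower in limma's test at p under 0.05 without adjustment, where 22.6% of all genes tested were. The A and B copies had close medians, but the copies of a pair often differed: the median size of the difference within a pair was 0.21, and it was over 0.5 in 7 pairs, over 0.2 in 25 and under 0.1 in 12. The A-minus-B signal did not overlap between genotypes in 42 of the 48 pairs, being higher in dis3E729K in 24 and lower in 18. That share was not worked out for pairs of other genes, so the count has no reference of its own kind. For the signal of single genes, both dis3E729K arrays lay below both wild-type arrays in 41.8% of all genes tested and above in 32.3%.

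In an exact two-sided permutation test over the arrays, 2 against 2 cannot give a p under 0.333, so no pair could pass. The RPS28 pair had the largest difference. The A-minus-B signal of RPS28 was 1.16 and 2.11 in dis3E729K against 0.29 and 0.18 in wild type, a difference of 1.40 ± 0.48 (SE; exact permutation p = 0.333). For RPL22 it was 2.39 and 2.88 in dis3E729K against 1.40 and 1.42 in wild type, a difference of 1.23 ± 0.25 (SE; exact permutation p = 0.333). In both pairs B was lower relative to A on both mutant arrays. The same held for RPS14, with 1.90 and 1.97 in dis3E729K against 1.35 and 1.50 in wild type and a difference of 0.51 ± 0.08 (SE; exact permutation p = 0.333). RPS25 differed by 0.55 ± 0.21 (SE) and RPL33 by 0.47 ± 0.16.

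RPS27 ran the other way, with A lower relative to B in the mutant. Its A-minus-B signal was -0.81 and -1.21 in dis3E729K against -0.41 and -0.37 in wild type, a difference of -0.62 ± 0.20 (SE; exact permutation p = 0.333). The RPS9 pair also had A lower, by -1.30 ± 1.09 (SE; exact permutation p = 0.667), but its genotypes overlapped, as wild type replicate 1 at -3.99 lay between the dis3E729K arrays at -3.93 and -4.57 and wild type replicate 2 was at -1.92. RPL4 differed by 0.62 ± 0.24 (SE; exact permutation p = 0.333) with a cross-hybridising probe set for A. Of the 48 pairs, 34 had a gene-specific probe set for both copies, and 6 of these 34 differed by more than 0.5.

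**Figure D4:**
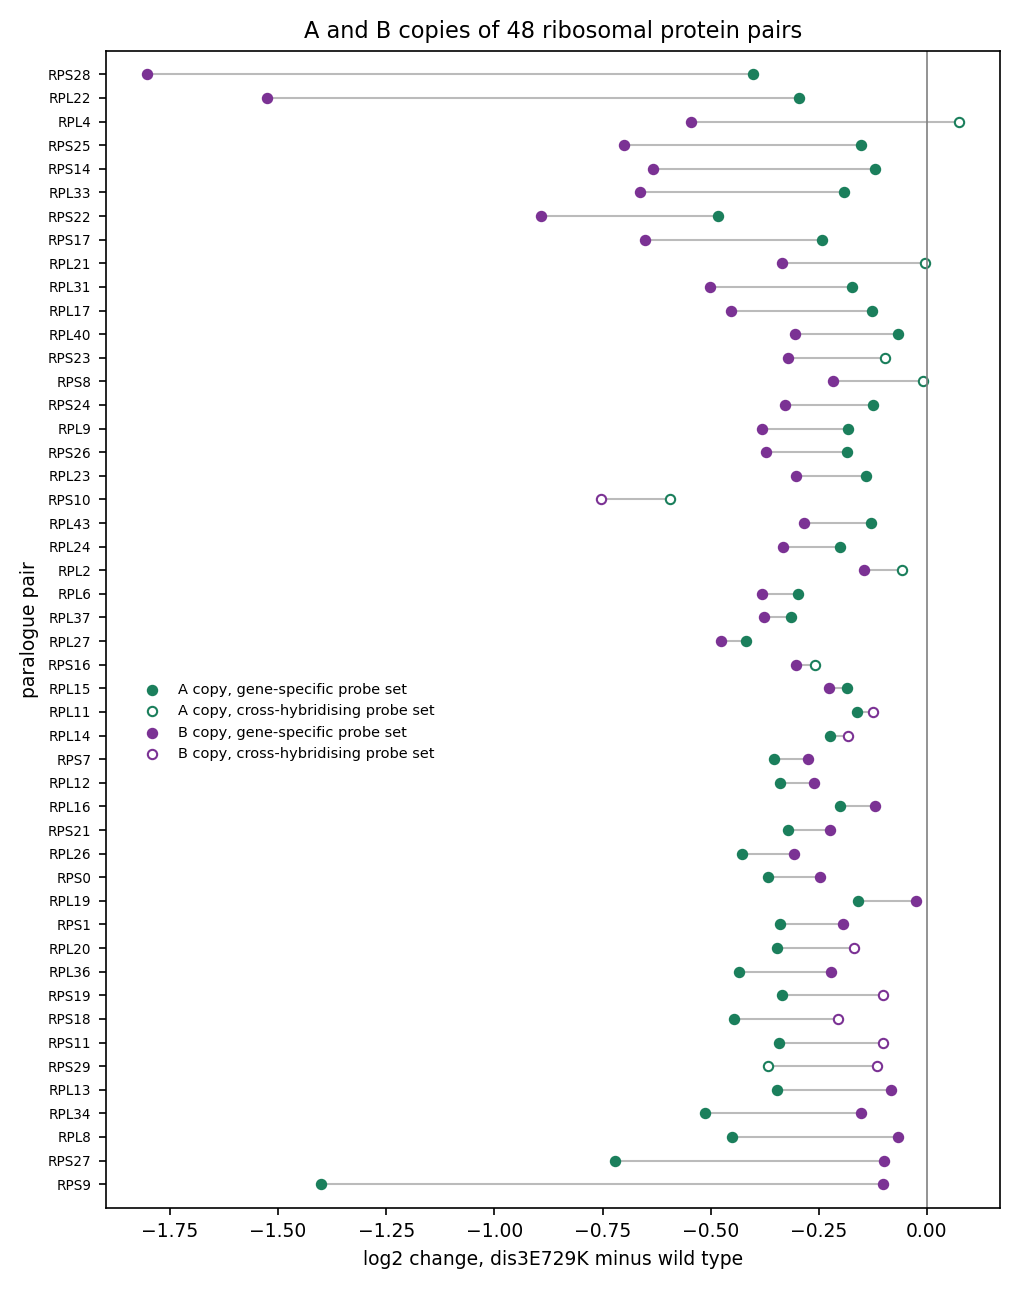
Log2 change, dis3E729K minus wild type, of the A copy (green) and the B copy (purple) of 48 paralogue pairs, ordered by A minus B, with open symbols for cross-hybridising probe sets. RPS28 and RPL22 at the top have a far lower B copy, RPS9 and RPS27 at the bottom a lower A copy, and 25 of the 48 pairs differ by over 0.2.

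Genes without a paralogue read nearer to wild type than the paired genes, and their probe sets were brighter. The 18 genes with no A or B letter had a median difference of -0.09, and the 96 genes of measured pairs had -0.29. Median signals of the 18 were 14.08 and 13.97 in dis3E729K against 14.08 and 14.10 in wild type, and those of the 96 were 13.57 and 13.37 in dis3E729K against 13.75 and 13.77 in wild type. The part of brightness in this contrast was not tested.

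Near identical paralogues limit what an array can tell apart. The kept probe set was marked as cross-hybridising for 25 of the 127 genes, and their median difference was -0.12, against -0.25 for the 102 with a gene-specific probe set. The 9 genes whose paralogue had no probe set here were all read by cross-hybridising sets, and each may hold the sum of both copies. For 20 genes the array carried a probe set of each kind, so the same transcript was read by both. The gene-specific set gave the lower difference for 14 of the 20, with a median of -0.24 against -0.18 for the cross-hybridising set, and it was the dimmer set for 12 of those 14.

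The largest gap was that of RPL14B, a large subunit gene. Its gene-specific set read 12.58 and 12.12 in dis3E729K against 13.02 and 13.06 in wild type, while its cross-hybridising set read 14.01 and 13.88 in dis3E729K against 14.11 and 14.15 in wild type. The differences were -0.69 and -0.18, so the choice of set moved the value by over 0.5. RPS17B had -0.65 by its gene-specific set and -0.22 by the other. RPL18B had a gap of nearly that of RPL14B in the opposite direction. Its gene-specific set read 12.17 and 11.99 in dis3E729K against 11.72 and 11.69 in wild type, both mutant arrays being higher, with a difference of 0.38 ± 0.13 (SE; limma adjusted p = 0.110 with cross-hybridising sets left out). The cross-hybridising set, which was the brighter one, read 13.97 and 13.91 in dis3E729K against 14.06 and 14.06 in wild type. RPS10B was the 1 ribosomal protein gene that passed limma's test only by its gene-specific set, at -0.82 ± 0.17 (SE; limma adjusted p = 0.0492).

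**Figure D5:**
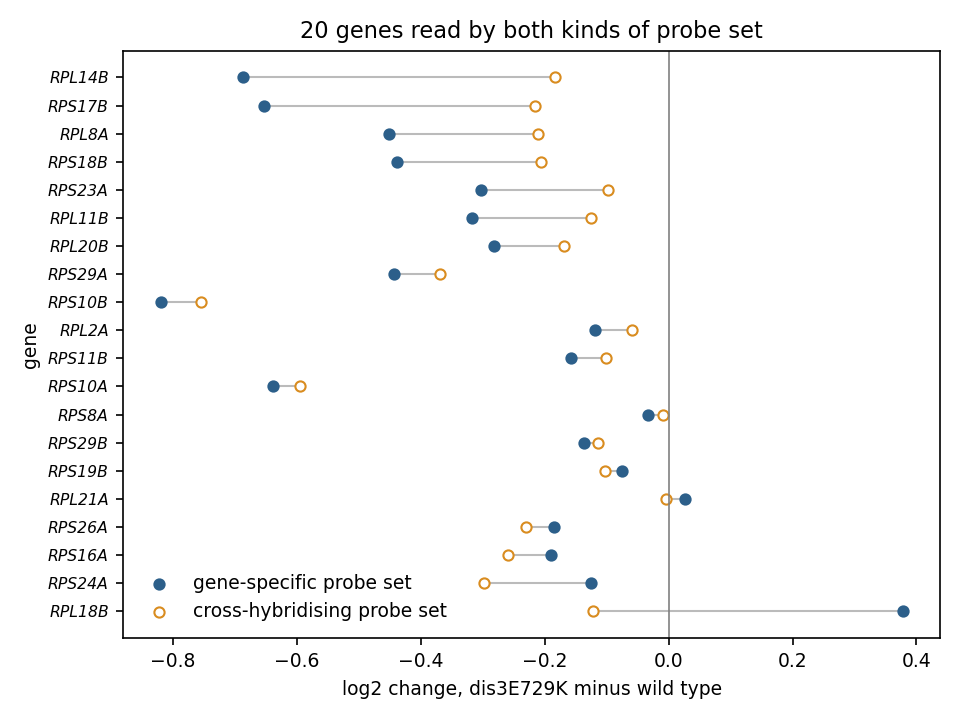
Log2 change, dis3E729K minus wild type, of 20 ribosomal protein genes by their gene-specific probe set (filled) and by their cross-hybridising probe set (open). The gene-specific set is lower for 14 of 20, by most for RPL14B, and for RPL18B alone the gene-specific set lies far above zero, at 0.38, and the other below.

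Genes that control or serve ribosomal proteins were counted from lists. Of 20 genes for the transcription factors of ribosomal protein genes and the TOR pathway above them, 4 fell and 2 rose, with a median of -0.25, where 8.15% of all genes tested fell and 7.71% rose. IFH1, the coactivator that binds ribosomal protein promoters through Fhl1 under good growth, read 8.97 and 8.36 in dis3E729K against 10.56 and 10.67 in wild type. It fell by 1.95 ± 0.24 (SE; limma adjusted p = 0.0340), and its groups did not overlap. FHL1, the forkhead protein at those promoters, fell by 0.84 ± 0.15 (SE; limma adjusted p = 0.0419). SCH9, a kinase that TORC1 activates, fell by 0.56 ± 0.11 and KOG1, a subunit of TORC1, by 0.67 ± 0.13. YAK1, a kinase of the stress and starvation response that activates the corepressor Crf1, read 11.97 and 12.57 in dis3E729K against 10.43 and 10.36 in wild type and rose by 1.87 ± 0.24 (SE; limma adjusted p = 0.0340). LST8, another TORC1 subunit, rose by 0.71 ± 0.13. In the fit blocked on replicate number 1 of the 20 fell and 1 rose, where 144 of the 5449 genes tested fell and 199 rose. Fewer of the 20 passed with any 1 array left out, as did fewer of all genes tested. Without single arrays the median over the 20 ran from -0.30 to -0.25.

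Of 15 genes listed for chaperones and importers of ribosomal proteins, 2 fell and 0 rose, where 8.15% of all genes tested fell. Their median was -0.49, and not all of them serve ribosomal proteins alone. SYO1, which imports Rpl5 and Rpl11 together, fell by 1.13 ± 0.23 (SE; limma adjusted p = 0.0478), and TSR4, a chaperone of Rps2, fell by 1.10 ± 0.13 (SE; limma adjusted p = 0.0336). The genes of their clients, RPL5, RPL11A, RPL11B and RPS2, did not pass. Differences were -0.0036 for RPL5, -0.16 for RPL11A, -0.13 for RPL11B and -0.02 for RPS2. By its gene-specific probe set RPL11B differed by -0.32 (limma adjusted p = 0.137 with cross-hybridising sets left out). Of 11 genes for the processing and surveillance of ribosomal protein pre-mRNA, 2 fell and 0 rose, against the same 8.15% of all genes tested. RNT1, the RNase III that cuts RPS22B pre-mRNA, read 9.58 and 9.24 in dis3E729K against 10.55 and 10.86 in wild type and fell by 1.29 ± 0.20 (SE; limma adjusted p = 0.0366). MUD2, which helps to commit pre-mRNA to splicing, fell by 0.69 ± 0.13 (SE; limma adjusted p = 0.0433). The calls in both lists changed with the array left out, and such fits leave 1 array in a genotype. Without single arrays the median ran from -0.69 to -0.29 over the chaperones and importers. Over the pre-mRNA genes it ran from -0.43 to -0.21. In the fit blocked on replicate number 0 genes of either list fell, where 144 of the 5449 genes tested fell.

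Of the proteins that sit on the ribosome none passed. Among 12 such genes 0 passed limma's test, where 8.15% of all genes tested fell and 7.71% rose. Their median was -0.12, with 0 at an unadjusted p under 0.05 in either direction, where 22.6% of all genes tested were lower and 18.1% higher. The members with the largest differences were BTT1, at 0.33 ± 0.19 (SE), and EGD2, at -0.24 ± 0.14, both of the complex that meets nascent chains. RPP1, the gene that matched the name pattern but is no ribosomal protein gene, read 10.18 and 9.56 in dis3E729K against 10.34 and 10.45 in wild type, a difference of -0.52 ± 0.25 (SE; limma adjusted p = 0.187). Among the 11 genes of RNase P and RNase MRP, to which it belongs, 0 passed limma's test, where 8.15% of all genes tested fell. Of the 11, 5 were lower at an unadjusted p under 0.05, where 22.6% of all genes tested were. POP8 and POP1 had the largest differences there, at -1.14 ± 0.31 and -0.94 ± 0.24 (SE).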

How the data were processed

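The authors deposited 1 log2 intensity for each of 10928 probe sets on each of 4 arrays. The submitters' processing notes name RMA, Affymetrix's Expression Console and its Transcriptome Analysis Console, without a version. RMA makes the arrays' distributions alike. Annotation of the platform was joined to RefSeq's R64 gene table by Entrez identifier, which gave 5498 probe sets of 5449 S. cerevisiae genes. Of several probe sets of a gene, the one with the highest mean over the 4 arrays was kept. Identifiers ending in _s_at or _x_at were marked as cross-hybridising. No coordinates or sequences are given, and introns were not counted. Titles gave each sample's genotype and number and call the cultures biological replicates. The p-values rest on the spread between 2 cultures per group, which limma moderates over all genes. Mating type markers differ between those 2 cultures in both genotypes, so the spread includes that difference.

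The test was limma 3.58.1 (lmFit and eBayes in R 4.3.3) on all 5449 genes, unfiltered, with Benjamini-Hochberg adjustment, and it was tested on simulated data. SE is the moderated one, except for A-minus-B values, whose SE comes from the SD of 2 arrays per genotype. Tables were made with pandas 2.3.3 and plots with matplotlib 3.10.9, in Python 3.11.15.

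Named were the genes past the threshold, the 10 lowest and 6 highest log2 differences, and the 8 pairs with the largest A-minus-B difference. Also named were genes known to act on their own RNA, snoRNA hosts, stalk and ubiquitin fusion genes, and DIS3. Per list, genes past the threshold or the 2 with the largest difference were named. RPL39, RPL14B, RPS2, RPL11A and RPL11B were added after their values were seen. The members and lists were chosen with earlier results of these data known. UPF1 was read as NAM7. Alternatives were a replicate block, other variance priors, scalings, filters, probe set rules and thresholds, and fits without 1 of the arrays.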

Additional observations from a re-analysis of the deposited data

How the results depend on the processing

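The sign of the median log2 difference over the ribosomal protein genes was the same under every alternative run, and between -0.15 and -0.30 with single arrays left out. The count of genes called did depend on the settings. A replicate block gave 144 lower and 199 higher among all genes tested, and 1 ribosomal protein gene, RPL22B, was lower; adjusted p values with the block were 0.0639 for RPS22B and 0.105 for RPS14B, and of the list genes 1 regulator was lower and 1 higher and 0 chaperones and 0 pre-mRNA genes were lower. The deviations of same-numbered arrays from their group means correlated at 0.08 over all genes and at -0.32 over the 127 ribosomal protein genes. The labels state no pairing, but the mating type markers follow the number in both genotypes. With an intensity trend in limma 10 ribosomal protein genes were lower, a count not set here against the share over all genes in that fit. At an adjusted p under 0.1 limma had 16 ribosomal protein genes lower, 1069 of all genes lower and 883 higher; at an unadjusted p under 0.05, 25, 1231 and 986. Without single arrays, 0 to 351 of all genes were lower, 0 to 316 higher, and 0 to 3 ribosomal protein genes lower; the lone array of a genotype was then assumed to vary like the other genotype. The median of the small subunit ran from -0.36 to -0.16 and the small minus large subunit difference from -0.092 to -0.020. That difference was -0.088 after quantile normalization over the genes tested, -0.080 with cross-hybridising probe sets left out, and -0.080 over members with gene-specific probe sets, a setting chosen after seeing the data; the cause was not tested.

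Several values near zero changed sign, none of them past the threshold. RPL21A was 0.010 after median centring, 0.043 after quantile normalization, 0.011 with probe sets averaged, 0.026 with cross-hybridising sets left out, and -0.054 to 0.046 without single arrays. RPL5 was 0.011 after median centring, 0.040 after quantile normalization and -0.029 to 0.021 without single arrays, RPS8A 0.0045 after median centring and -0.053 to 0.034 without single arrays, RPP1A 0.025 after quantile normalization and -0.086 to 0.0011 without single arrays, and RPL32 -0.042 to 0.10 without single arrays. RPL18B was 0.13 with probe sets averaged and 0.38 with cross-hybridising sets left out. With 2 arrays per genotype and signals near the top of the scale, the precision of small differences is limited.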
